A study of Bubalus bubalis with 8 samples.

Results

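Oocyte maturation was examined in water buffalo (Bubalus bubalis) by setting the library of the immature GV (germinal vesicle) oocyte against that of the mature MII (metaphase II) oocyte, 1 library each. The members were the gene IDs that reached 10 FPKM (fragments per kilobase of transcript, scaled to the mapped fragments of the library) in the GV or the MII library, 7973 of the 28659 IDs in the table. They were then followed through the later libraries of the series, which cover 2-cell, 4-cell, 8-cell and 16-cell embryos, a morula and a blastocyst. All oocytes and embryos were obtained in vitro, and the embryos came from parthenogenetic activation, in which an egg divides without sperm. Of the compared IDs, 6890 were numbered IDs (the word gene and a number) and 1083 were new-gene IDs, named as new genes by the authors.

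A GV oocyte is arrested in prophase of meiosis I and has stored large amounts of messenger RNA during its growth. Transcription is largely silent by the end of growth, so the passage to metaphase II relies on this store. Some stored transcripts gain poly(A) tail and are translated, while others lose their tail and are degraded. The MII oocyte is the cell that is fertilised or activated, and the embryo lives on the remaining store until its own genome takes over.

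The IDs carry no gene names. RefSeq's gene table for the buffalo assembly NDDB_SH_1 matched 0 of the 28659 IDs, and 0 of 26 marker symbols of oocyte, cumulus and retina cells were matched to an ID, so the labelled cell type was not checked against markers. The sample labels carry an extraction text that names retina, and nothing on RNA isolation was taken from it. How many oocytes went into a library is not stated in the labels. Each stage is a single library, so there is no replicate check, no test was possible between stages, and every count below describes these libraries. FPKM is a share of the library, so less of a transcript per oocyte and more of other transcripts cannot be told apart.

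The GV library held 15109 IDs at 1 FPKM or more and the MII library 14152. At 10 FPKM or more there were 7124 and 6896 IDs, of which 6047 were in both. The FPKM sum of the MII library was 93.9% of that of the GV library. The 100 most abundant IDs took 29.8% of the sum in GV and 33.9% in MII, and 69 IDs were among the top 100 of both. Among the top 100 IDs of the MII oocyte, 81 were also in the top 100 of the 2-cell embryo.

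Most IDs kept their level through maturation. On the log2(FPKM + 1) scale, 5269 of the 7973 compared IDs (66.1%) lay within 1 log2 unit of their GV value and 3080 (38.6%) within 0.5. The median difference, MII minus GV, was -0.11 log2 units, with quartiles of -0.89 and 0.52. It was -0.01 with each library rescaled to 1 sum, -0.04 with median-of-ratios scaling and 0 with no FPKM minimum, so no overall shift held under these settings. The distribution had a longer lower side: 1190 IDs were lower by 1 to 2 log2 units and 704 higher by that much. A difference of 2 or more log2 units, 4-fold on this scale, was the rule for calling an ID lower or higher. By this rule 594 IDs were lower at MII (7.45% of those compared) and 216 were higher (2.71%); both sets were chosen by these values. Differences of 3 or more log2 units were seen for 139 lower IDs and 40 higher IDs, and of 4 or more for 23 and 9.

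**Figure D1:**
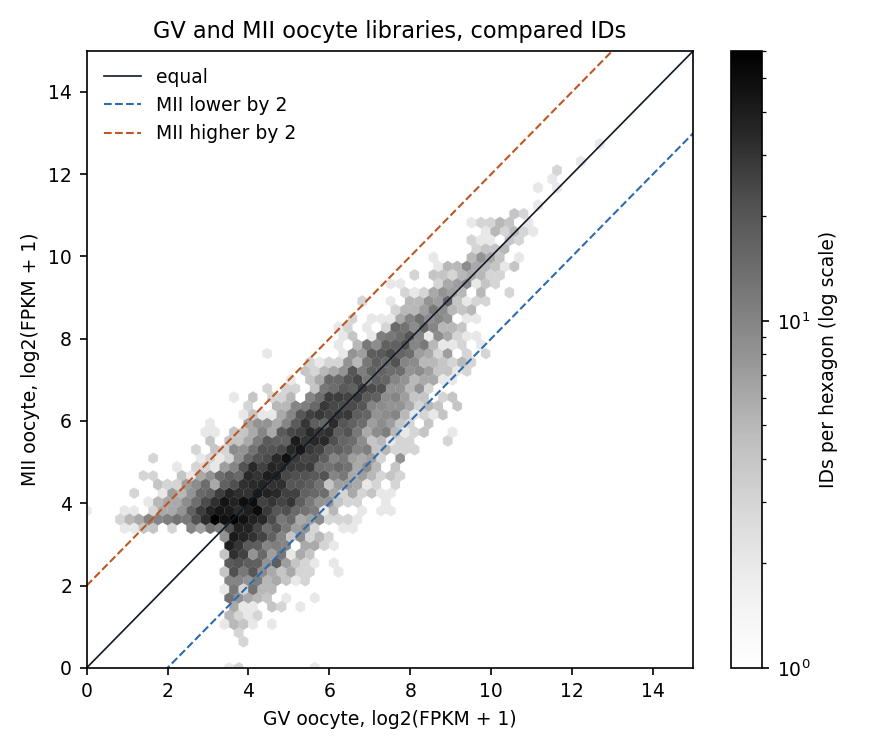
Each hexagon holds IDs at a given level in the GV oocyte (x axis) and the MII oocyte (y axis), both as log2(FPKM + 1), with darker hexagons for more IDs. Most of the 7973 IDs lie near the line of equal level, and 594 lie on or below the lower dashed line against 216 on or above the upper one; the empty corner at low levels is the 10 FPKM minimum.

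The spread of the step was moderate within the series. Its robust SD (the interquartile range, scaled so that it equals the SD of a normal distribution) was 1.04 log2 units. The same measure was 0.83 between MII and 2-cell, 0.51 between 4-cell and 8-cell and 2.99 between 8-cell and 16-cell. Near the 10 FPKM minimum, 309 IDs had a higher value of 10 to 11 FPKM, with 13 lower and 21 higher at MII. Just outside it, 422 IDs at 9 to 10 FPKM had 18 lower and 12 higher.

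The 4 IDs named here were the lower and the higher ID with the greatest difference, the lower ID with the highest GV level and the higher ID with the highest MII level. Bubalus_newGene_549 was at 144 FPKM in the GV oocyte, was listed at 0 in the MII oocyte, and was at 9.70 FPKM at 2-cell, 3.88 at 8-cell and 5.25 at 16-cell, with 4-cell, morula and blastocyst values listed at 0. It was far below its GV level in every later library. Bubalus_newGene_13792 was the most abundant lower ID, with 7804 FPKM in GV, 1627 in MII, 2158 at 2-cell, 1394 at 4-cell, 1915 at 8-cell, 99.8 at 16-cell, 2.64 at morula and 1.19 at blastocyst. Its MII value was close to the values of the 4-cell and 8-cell embryos and far from the GV value.

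Among the higher IDs, Bubalus_newGene_27019 was near 0 in GV (0.000145 FPKM), at 213 FPKM in MII and at 12.6 FPKM in the 2-cell embryo, and was at no more than 0.000121 FPKM in the 5 libraries after that. The MII library was thus the only library in which this ID was abundant, followed by the 2-cell library. For gene15194, the FPKM was 200.2 in GV, 1163 in MII, 332 at 2-cell, 32.1 at 4-cell, 42.4 at 8-cell and 3.58 at 16-cell, and it was listed at 0 at morula and blastocyst. Its MII level was 5.81 times its GV level, and its 2-cell level lay between them.

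A low value at MII was seldom an absence. The median of the 594 lower IDs was 55.9 FPKM in GV (quartiles over IDs 24.9 and 181) and 8.10 FPKM in MII (quartiles 3.32 and 27.1). At MII, 269 of them were still at 10 FPKM or more, 29 were under 1 FPKM and 7 were listed at 0. Their joint share of the library was 10.1% of all FPKM in GV and 1.83% in MII. The 216 higher IDs were a smaller pool, with a median of 3.90 FPKM in GV and 31.1 FPKM in MII. They held 0.28% of the sum in GV and 1.77% in MII, and 17 of them were under 1 FPKM in GV. The IDs within 1 log2 unit took up most of the difference, with 70.3% of the sum in GV and 78.5% in MII.

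The size of change depended on starting abundance in a way that followed the choice of the abundance measure. Binned by GV level, the share of lower IDs was 6.73% of 2838 IDs at 10 to 30 FPKM, 7.46% of 2307 at 30 to 100, 11.2% of 1246 at 100 to 300 and 13.7% of 561 at 300 to 1000, but 8.14% of 172 at 1000 FPKM or more. The share of higher IDs went the other way, from 1.52% at 10 to 30 FPKM to 0.56% at 100 to 300 FPKM, and no ID at 300 FPKM or more was higher by the rule. The background over all compared IDs was 7.45% lower and 2.71% higher. The GV value enters both the bin and the difference. When IDs were binned by the mean of both log2 values instead, the share of lower IDs was 6.35% at 10 to 30 FPKM and 4.83% at 300 to 1000. When they were binned by MII level, it was 4.53% and 0.66%. The order of these bins thus turned with the measure, and no single direction held.

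**Figure D2:**
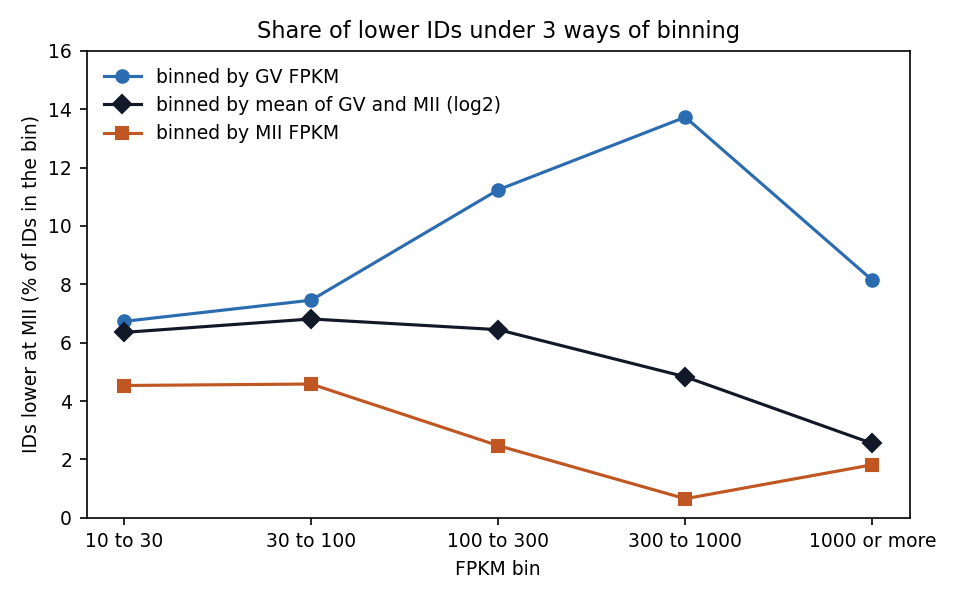
The share of IDs lower at MII (y axis, percent of the IDs in a bin) is plotted against FPKM bins made from the GV level, from the mean of the GV and MII log2 values, or from the MII level. The share is 13.7% at 300 to 1000 FPKM when binned by GV, 4.83% when binned by the mean and 0.66% when binned by MII.

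IDs at 1000 FPKM or more were more alike in the GV and MII libraries than compared IDs in general under each of these measures. Of IDs at 1000 FPKM or more, 78.5% lay within 1 log2 unit when binned by GV, 85.4% when binned by the mean and 83.0% when binned by MII, against 66.1% of all compared IDs. With bins by MII the 300 to 1000 FPKM bin was as high (83.2%). In the bins by the mean, the robust SD of the difference was 1.01 log2 units at 10 to 30 FPKM, 0.93 at 100 to 300 and 0.55 at 1000 or more. IDs that began under 10 FPKM entered the comparison only by reaching 10 FPKM at MII and had to be equal or higher. There were 849 of these, of which 151 were higher by 2 or more log2 units; all 17 that began under 1 FPKM were in that number. The other 65 higher IDs began at 10 FPKM or more, and 7 of them at 100 or more.

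Among compared IDs, new-gene IDs were lower at MII more often than numbered IDs. Among numbered IDs 424 of 6890 (6.15%) were lower and 188 (2.73%) higher, and among new-gene IDs 170 of 1083 (15.7%) were lower and 28 (2.59%) higher. The medians of the difference were -0.04 log2 units for numbered IDs and -0.69 for new-gene IDs. Of the lower IDs, 246 of 424 numbered but 23 of 170 new-gene IDs were still at 10 FPKM or more in MII. Most lower new-gene IDs thus entered the comparison through GV alone. Among compared IDs at 10 FPKM or more in MII, these were 246 of 6184 numbered and 23 of 712 new-gene IDs. The gap was not seen there, though a minimum on MII makes a low MII value less likely. Only 51.2% of new-gene IDs lay within 1 log2 unit, against 68.4% of numbered IDs. The higher side showed no such gap between the types. With a minimum of 30 FPKM, 7.60% of 4353 numbered and 15.6% of 462 new-gene IDs were lower. With no FPKM minimum the shares were 2.74% of 18220 and 2.88% of 10439. An ID under 1 FPKM in GV, or somewhat above it, cannot be lower by the rule, and only 15109 of all 28659 IDs were at 1 FPKM or more there. The shares with no minimum therefore cannot show whether the gap held.

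New-gene IDs were also less abundant, with a median of 22.5 FPKM in GV against 37.6 for numbered IDs, so the types were compared within bins of GV level. At 10 to 30 FPKM the share of lower IDs was 17.0% of 578 new-gene IDs and 4.12% of 2260 numbered IDs. At 30 to 100 FPKM it was 16.7% of 293 and 6.11% of 2014, and at 100 to 300 FPKM 17.8% of 90 and 10.7% of 1156. At 300 to 1000 FPKM the shares were 14.3% of 28 and 13.7% of 533. At 1000 FPKM or more, 3 of 6 new-gene IDs and 11 of 166 numbered IDs were lower. From 10 to 1000 FPKM the share among new-gene IDs lay between 14.3% and 17.8%, while that among numbered IDs was greater in each higher bin. Binned by the mean level, the shares were 11.8% and 5.25% at 10 to 30 FPKM and 6.33% and 6.87% at 30 to 100, so at 30 to 100 FPKM the gap was seen only with bins by GV. Binned by MII level at 10 to 30 FPKM the order turned, with 2.82% of new-gene and 4.82% of numbered IDs lower. The median difference of new-gene IDs was the lower one at 10 to 30 FPKM under each measure: -0.81 against -0.05 by GV, -0.61 against 0.03 by the mean and -0.29 against 0.11 by MII.

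**Figure D3:**
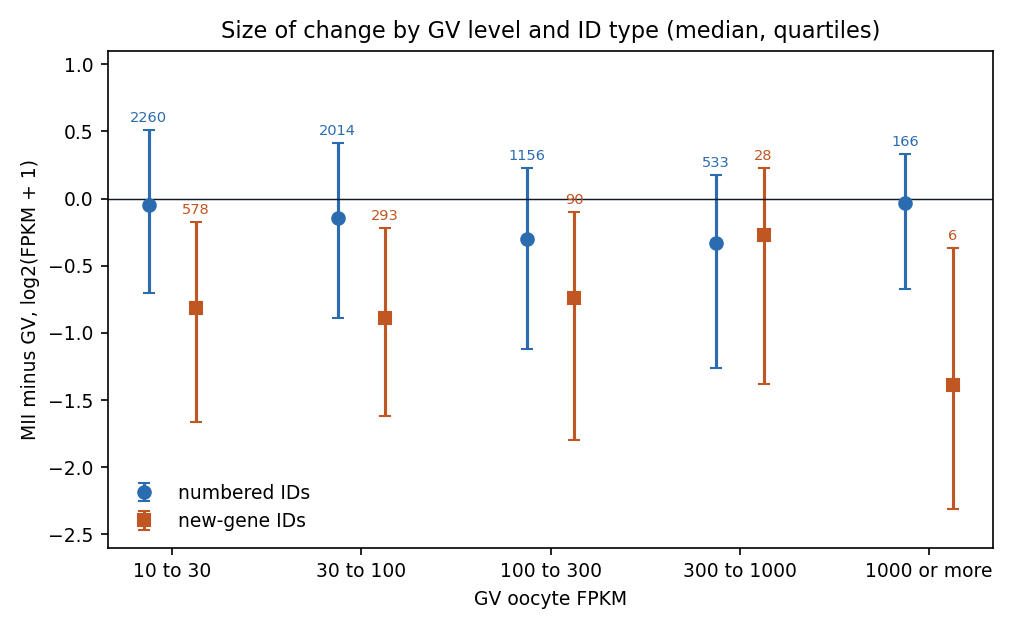
Median difference between the MII and GV oocyte (y axis, log2(FPKM + 1) units, bars from the lower to the upper quartile over IDs) for numbered and new-gene IDs in bins of GV level (x axis), with the number of IDs above each bar. The new-gene median is -0.81 and the numbered median -0.05 at 10 to 30 FPKM, and they are -0.27 and -0.33 at 300 to 1000 FPKM.

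After maturation, the median of the lower IDs in the 2-cell library lay between those of GV and MII, and the 4-cell median was lower. Their median was 24.0 FPKM at 2-cell, 14.5 at 4-cell and 16.6 at 8-cell, against 55.9 in GV and 8.10 in MII. At the 2-cell stage 489 of the 594 lay between their GV and MII values, 33 were above GV and 71 below MII; of all compared IDs, 44.7% lay between. A set chosen for a high GV and a low MII value favours values between them, so nothing is read from that count. By distance on the log2 scale, 271 (45.6%) were nearer to GV than to MII in the 2-cell library, 171 (28.8%) in the 4-cell and 170 (28.6%) in the 8-cell library. Within 1 log2 unit of their MII value were 51.0% of the lower IDs in the 4-cell and 53.2% in the 8-cell library, against 53.6% and 59.3% of all compared IDs, so closeness to MII was no more common among them.

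Values at least 4-fold below GV were more common among the lower IDs than among all compared IDs up to the 8-cell stage. The 2-cell to blastocyst libraries took no part in choosing the IDs, but a difference from GV shares the GV library with that choice. Choosing IDs for a high GV value favours later values below it, so no lasting low level is read from these shares. The compared IDs also include the lower IDs themselves. In the 2-cell library 27.6% of the lower IDs were at least 4-fold below GV, against 4.31% of all compared IDs. The shares were 51.5% against 14.5% in the 4-cell and 49.2% against 12.1% in the 8-cell library. In all 3 of these libraries 129 of the 594 (21.7%) were 4-fold below GV, against 240 of 7973 (3.01%), and 70 (11.8%) were within 1 log2 unit of GV in all 3, against 3189 of 7973. At the other end of the series, 48 of the 594 were 4-fold below GV in all 6 later libraries, against 85 of all 7973. New-gene IDs made up 33 of those 48 and 55 of those 85.

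From the 16-cell stage the ID types parted. Of the lower IDs, 56.7% were 4-fold below GV at the 16-cell stage, 54.7% at the morula and 56.1% at the blastocyst stage, against 38.6%, 41.2% and 42.9% of all compared IDs. Among lower new-gene IDs the shares were 91.2%, 98.2% and 98.2%, and 79.2%, 88.5% and 89.4% of all compared new-gene IDs were that low. Among lower numbered IDs they were 42.9%, 37.3% and 39.2%, against 32.2%, 33.7% and 35.6% of all compared numbered IDs. In the morula and blastocyst the lower numbered IDs were thus a little above the background of their type, and the lower new-gene IDs were also above theirs. New-gene IDs were a larger part of the lower IDs than of all compared IDs (28.6% against 13.6%). How much of the excess over all IDs came from this mix was not tested.

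**Figure D4:**
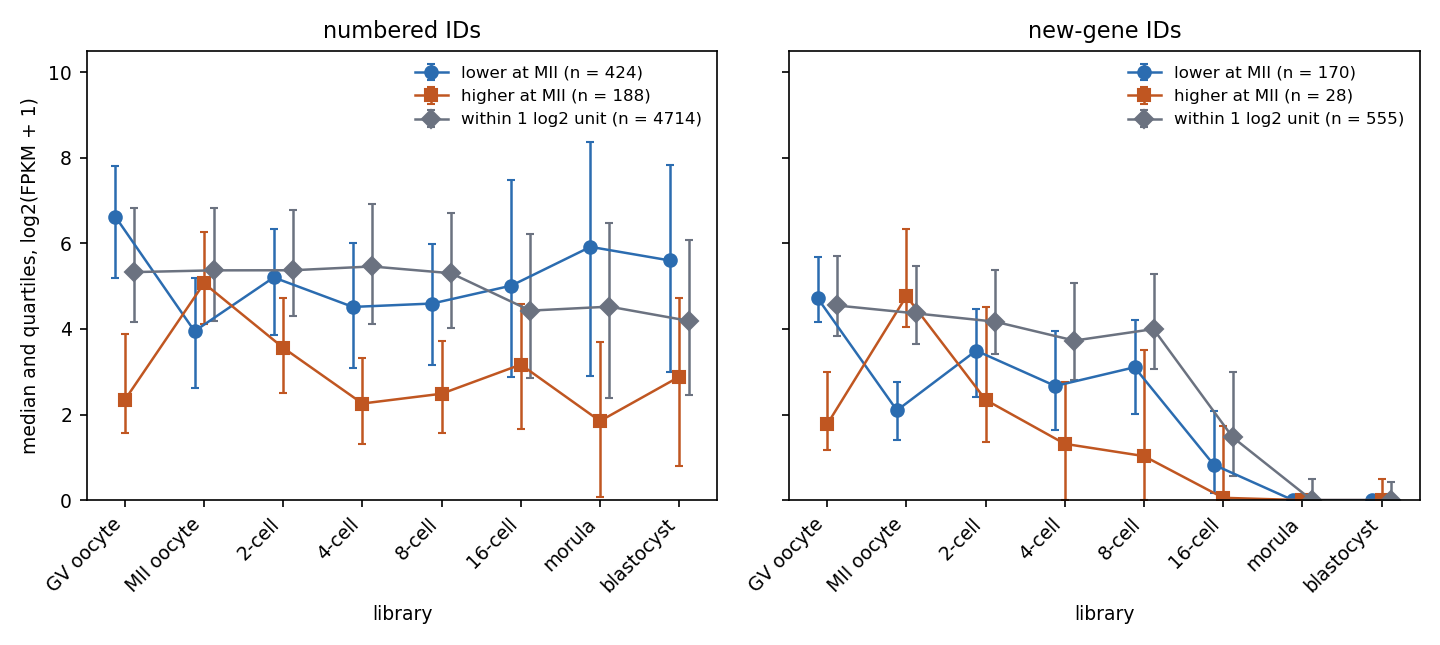
Median level with quartiles over IDs (y axis, log2(FPKM + 1)) in each of the 8 libraries (x axis) for IDs lower at MII, higher at MII and within 1 log2 unit, with numbered IDs on the left and new-gene IDs on the right. The 424 lower numbered IDs have a median of 97.6 FPKM in GV, 14.4 in MII and 59.5 in the morula, while the median of the 170 lower new-gene IDs is 0.78 FPKM in the 16-cell embryo and is listed at 0 in the morula.

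Lower numbered IDs that were abundant in the GV oocyte had high FPKM again in the morula. The FPKM sum was 1146980 in GV, 2501130 in the morula and 2239890 in the blastocyst, so levels in these libraries are not on an equal scale. Whether these IDs regained their GV level at an equal sum was not tested. Groups within 1 library can be compared. At a GV level of 300 to 1000 FPKM there were 73 lower numbered IDs, with medians of 496 FPKM in GV, 82.3 in MII, 126 at 2-cell, 89.6 at 4-cell, 87.1 at 8-cell, 289 at 16-cell, 609 at morula and 329 at blastocyst. The 358 numbered IDs of the same GV level that stayed within 1 log2 unit at MII had medians of 478, 465, 378, 382, 368, 183, 247 and 157 FPKM in the same order. The lower IDs were thus the lesser group from MII to the 8-cell stage and the greater group from the 16-cell stage on. At 100 to 300 FPKM the medians of the 124 lower numbered IDs were 25.5 FPKM in MII, 49.0 at 8-cell, 63.6 at 16-cell and 120.5 at morula, and those of 785 steady IDs were 162, 128, 63.9 and 73.1. With a GV level of 30 to 100 FPKM the 123 lower and 1447 steady numbered IDs had medians of 22.4 and 25.1 FPKM in the morula and 26.0 and 17.9 in the blastocyst, so in that bin the excess was seen in the blastocyst and not in the morula. At 1000 FPKM or more, 11 lower and 132 steady numbered IDs had medians of 210 and 553 FPKM at 16-cell, 1324 and 599 in the morula and 1091 and 393 in the blastocyst. At 10 to 30 FPKM, medians of 93 lower and 1627 steady numbered IDs were 3.39 and 9.98 in the morula and 6.34 and 9.28 in the blastocyst, with no excess.

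Some of the lower IDs exceeded their GV level in FPKM after the 8-cell stage. The larger FPKM sums of the morula and blastocyst bear on these shares and on their background. At least 4-fold above GV were 6.73% of the lower IDs at 16-cell, 13.6% at morula and 11.6% at blastocyst, against 7.46%, 11% and 9.48% of all compared IDs. In any of the 2-, 4- and 8-cell libraries 2 of the 594 (0.34%) did so, against 268 of 7973 compared IDs (3.36%). The choice of a high GV value makes such a rise less likely. In at least 1 of the 16-cell, morula and blastocyst libraries 107 of 424 lower numbered IDs (25.2%) were 4-fold above GV, against 1251 of 6890 compared numbered IDs (18.2%). For new-gene IDs the figures were 3 of 170 and 42 of 1083. Of the whole FPKM sum, 11.2% at 16-cell, 11.6% at morula and 10.9% at blastocyst fell to the lower IDs, with 44.1% of the morula amount in 10 IDs.

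The median of the higher IDs was between those of GV and MII in the 2-cell library and near that of GV at 4-cell and 8-cell. Their median was 3.90 FPKM in GV, 31.1 in MII, 10.4 at 2-cell, 3.33 at 4-cell, 4.43 at 8-cell, 5.99 at 16-cell, 1.47 at morula and 4.80 at blastocyst. In the 2-cell library 144 of the 216 (66.7%) were nearer to GV than to MII, and 199 (92.1%) in the 4-cell library, against 49.8% and 47.2% of all compared IDs. The choice of a high MII value favours this. Within 1 log2 unit of GV at 2-cell were 53.7% of the higher IDs and 75.8% of all compared IDs. Being at least 4-fold above GV was seen for 24 (11.1%) in the 2-cell library, against 0.627% of all compared IDs. It was seen for 5 (2.31%) in the 4-cell library, near the background of 2.61%, and for 6 (2.78%) in the 8-cell library, against 1.32%. These shares use the GV value again, and choosing IDs for a low GV value favours later values above it. MII was the highest of all 8 libraries for 160 of the 216 (74.1%) and for 17.5% of all compared IDs, a difference that the choice of the set largely fixes.

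Part of the higher IDs were above GV again at later stages, in FPKM not scaled to an equal sum. In the 16-cell library 48 (22.2%) were 4-fold above GV, against 7.46% of all compared IDs. In the morula the share was 10.6%, against 11%, and in the blastocyst 18.1%, against 9.48%. A difference from GV shares the GV library with the choice of the set. Choosing IDs for a low GV value favours later values above it, also within a bin of GV level. No later rise is therefore read from these shares or from those by bin. The higher IDs began at lower levels than most, so they were also set against steady IDs of the same bin of GV level. At 1 to 10 FPKM in GV, 26.1% of 134 higher IDs and 14.7% of 402 steady IDs were 4-fold above GV at 16-cell, and 20.9% and 11.2% at blastocyst. In that bin the GV median was 2.56 FPKM for the higher IDs and 8.16 for the steady IDs, so the levels were not matched. At 10 to 30 FPKM the GV medians were closer, at 16.1 and 16.7. There 18.6% of 43 higher IDs and 7.49% of 1935 steady IDs were 4-fold above GV at 16-cell, and 18.6% and 8.42% at blastocyst. At 30 to 100 FPKM, 0 of 15 higher IDs were 4-fold above GV in either library, against 4.53% and 6.22% of 1591 steady IDs. None of the 28 higher new-gene IDs was 4-fold above GV in the 16-cell embryo or the morula, and 3 were in the blastocyst.

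The 5 steps after the 2-cell stage use neither oocyte library, so the differences there share no library with the choice of IDs. They can still depend on that choice, since IDs chosen for a high MII level also had a higher median at 2-cell than at 4-cell. A step was read over those compared IDs that reached 10 FPKM in one of its own libraries. From the 2-cell to the 4-cell embryo, 51 of 113 higher IDs (45.1%) were lower by 2 or more log2 units, against 6.05% of 6993 compared IDs, and the median difference was -1.92 log2 units against -0.15. The 10 FPKM minimum keeps an ID that is high in 1 library of the step only. Of the 113 higher IDs, 110 reached it at 2-cell and 45 at 4-cell, which favours a fall. Over all 216 higher IDs with no minimum in the step, the median difference was -1.34 against -0.22 for all 7973. The higher IDs thus lay below the rest in this step either way. The lower IDs were nearer to the background, with 41 of 463 (8.86%) and a median of -0.51. Differences to the higher side were rare in this step for both sets, with 3 IDs each and a background of 1.43%.

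From the 4-cell to the 8-cell embryo few IDs of any kind differed. Of the higher IDs, 1 was lower by the rule and 1 higher, of 64, and among 391 lower IDs the counts were 1 and 8. The background was 0.445% lower and 0.35% higher. From the 8-cell to the 16-cell embryo the lower IDs were split, with 125 of 429 (29.1%) lower and 132 (30.8%) higher, against 33% and 13.6% of compared IDs. The higher IDs had 15 of 111 (13.5%) lower and 39 (35.1%) higher. Of these 111, 61 reached 10 FPKM at 8-cell and 91 at 16-cell, which favours a rise. The larger upper side of both sets lay with numbered IDs. Of 359 lower numbered IDs 20.3% were lower at 16-cell and 35.4% higher. Of 103 higher numbered IDs the shares were 8.74% and 37.9%, against 28.9% and 14.5% of compared numbered IDs. Of 70 lower new-gene IDs they were 74.3% and 7.14%, against 71.4% and 5.12% of compared new-gene IDs. Of 8 higher new-gene IDs 0 were higher. With no minimum in the step, the medians were -0.63 for lower, 0.12 for higher and -1.01 for all compared IDs.

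Between 16-cell and morula the sets differed from all compared IDs in opposite directions. Of 341 lower IDs 90 (26.4%) were higher in the morula and 38 (11.1%) lower, with a median difference of 0.80 log2 units. Numbered IDs made up 89 of those 90. Of 13 lower new-gene IDs 10 were lower in the morula, against 49.7% of 181 compared new-gene IDs. Of 101 higher IDs 4 (3.96%) were higher and 41 (40.6%) lower, with a median of -1.41 log2 units. Of these 101, 91 reached 10 FPKM at 16-cell and 51 in the morula, which favours a fall. All compared IDs had 15.9% higher and 13.7% lower, with a median of 0.29. The FPKM sum of the morula library (2501130) was larger than that of the 16-cell library (1162570), and their scale bears on these shares and medians. After all libraries were set to an equal sum, 12.1% of lower IDs were higher, against 6.18% of all, and 60.2% of higher IDs were lower, against 26.5%. Relative to all IDs the order was kept. From the morula to the blastocyst 30 of 85 higher IDs (35.3%) were higher and 2 lower, against a background of 7.19% and 5.25%. Of these 85, 81 reached 10 FPKM in the blastocyst and 51 in the morula, which favours a rise. The lower IDs were near that background, with 25 of 327 (7.65%) higher and 17 (5.20%) lower. With no minimum in the step, the medians of the higher IDs were -0.83 (all compared -0.19) between 16-cell and morula and 0.48 (all compared -0.06) between morula and blastocyst, while that of the lower IDs between 16-cell and morula was 0. Both of the last steps share the morula library.

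**Figure D5:**
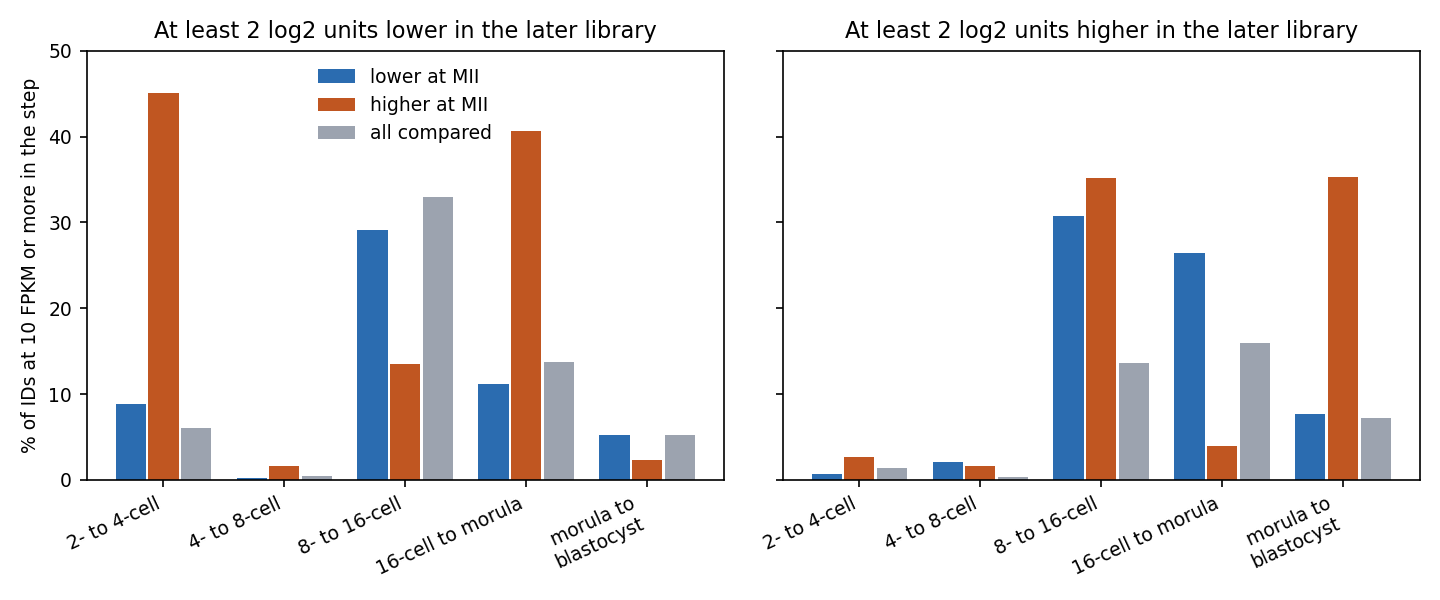
Share of IDs (y axis, percent of the IDs that reach 10 FPKM in the step) that were lower (left) or higher (right) by 2 or more log2 units in the later library, for each step after the 2-cell stage (x axis). IDs higher at MII stand at 45.1% lower between 2-cell and 4-cell and 40.6% lower between 16-cell and morula, against 6.05% and 13.7% of all compared IDs. The 10 FPKM minimum favours a fall of the higher IDs in both steps.

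Across all 7973 IDs, the difference at maturation had little relation to the differences in these 5 steps. Pearson's r ranged from -0.10 (16-cell to morula) to 0.09 (morula to blastocyst) and Spearman's rho from -0.09 to 0.08. These coefficients are across IDs, which are not replicates.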

How the data were processed

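Per the file's name, the authors deposited FPKM values for 28659 IDs in 8 libraries. No aligner, build, annotation or filter is named in the sources used here. Column names were matched to the sample descriptions, and the titles gave the stage. Read depth is unknown, so no counting interval is given. Values were taken to log2(FPKM + 1), which understates folds of low IDs. IDs with at least 10 FPKM in GV or MII were compared, and a difference of 2 log2 units was called. The rule was tested on simulated data. Named IDs, at most 2 per direction, were those with the greatest difference and the highest level. The members, lists and rules were chosen with earlier results of these data known. Alternatives changed the pseudocount, FPKM minimum, scaling, ID types and abundance bins. Python 3.11.15, numpy 2.4.6, pandas 2.3.3, scipy 1.17.1 and matplotlib 3.10.9 were used.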

Additional observations from a re-analysis of the deposited data

How the results depend on the processing

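No result had a test, so values are compared by size; read depth and the spread between replicates are unknown. Of 128 values recomputed for 18 results, 93 moved little. For counts and the gap between bins this meant within 1.5 times, and for the median within 0.1 log2 units. For shares it meant within the 95% exact binomial interval. IDs are not replicates, so the width of that interval follows the number of IDs and measures no spread between samples. The other values follow, and the cause was not tested except where the setting leaves other IDs in. The alternatives for the 4 shares in later steps, and those other than binning for the share of lower IDs by GV level, were chosen after seeing the data. Lower IDs outnumbered higher IDs under both scalings (504 lower and 234 higher after rescaling to a sum of 1000000, 521 and 218 with median-of-ratios scaling). The gap in the share of lower IDs between 300 to 1000 and 10 to 30 FPKM, 7.0 percentage points, turned to -1.52 with bins by the mean and -3.88 with bins by MII (shares of 4.83% and 0.655% at 300 to 1000 FPKM, and 4.53% at 10 to 30 FPKM for MII). A pseudocount of 0.1 made it 4.53 points, with 9.20% lower at 10 to 30 FPKM; it gave 6.95% of numbered and 18.7% of new-gene IDs lower, and 16.7% of higher IDs 4-fold above GV at 2-cell. With no FPKM minimum, the median difference was 0 and new-gene IDs were 37.6% of the lower IDs. Of numbered IDs 2.74% and of new-gene IDs 2.88% were lower. These shares include many IDs too low in GV to be called, so they cannot show whether the gap between ID types held. Under this setting higher IDs were lower at 4-cell in 21.5% (2.21% of all) and in the morula in 21.8% (10.9%). They were higher in the blastocyst in 16.9% (4.45%), and lower IDs were higher in the morula in 13.1% (6.04%). A minimum of 30 FPKM gave 109 higher IDs, 17.9% new-gene among the lower, 7.60% of numbered IDs lower, 51.1% of lower IDs 4-fold below GV at 16-cell, and 0% lower at 10 to 30 FPKM with a gap of 13.7 points, since such IDs enter only through MII. Rescaling gave 5.46% of numbered IDs lower, 5.46% at 10 to 30 FPKM, 21.2% of lower and 16.2% of higher IDs still 4-fold away from GV at 2-cell, 12.1% of lower IDs higher in the morula (6.18% of all) and 60.2% of higher IDs lower there (26.5%). At 10 to 30 FPKM, 5.71% were lower with median-of-ratios scaling, 4.12% among numbered IDs and 4.59% with the minimum on the mean of GV and MII, which also gave 24.1% new-gene among the lower. Numbered IDs alone had 42.9% of lower IDs 4-fold below GV at 16-cell.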
